A study of Mus musculus with 9 samples.

Results

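The epithelial keratins described here are 9 genes of the uterine transcriptome, chosen by name among the 31274 entries of the deposited table and split into 2 classes. The simple keratins are *Krt7*, *Krt8*, *Krt18* and *Krt19*, which are typical of single-layered epithelia. The stratified keratins are *Krt4*, *Krt5*, *Krt13*, *Krt14* and *Krt15*, which are typical of multilayered epithelia. RNA-Seq was performed on whole uteri of C57BL/6 mice on day 4.5 of pseudopregnancy, with 1 library from each of 4 Wnk1f/f and 5 Wnk1d/d females, to ask which transcripts differ in the receptive uterus when the kinase gene *Wnk1* is deleted. Both groups carried the floxed *Wnk1* allele, in which loxP sites flank exon 2, and Wnk1d/d mice also carried Cre driven by the progesterone receptor gene (PGR), so that exon 2 was removed from PGR-expressing cells. Per the study's methods the females were virgins of 6 to 10 weeks, and vasectomized males were used, so that no embryo contributed RNA. The same Cre also recombines in the ovary and pituitary, and uterine immune and endothelial cells, which lack PGR, keep an intact *Wnk1*.

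Keratins are the intermediate filament proteins of epithelial cells. Each filament is built from heterodimers of an acidic type I and a basic type II keratin, so the genes are used in pairs: *Krt8* (type II) with *Krt18* (type I) in simple epithelia, *Krt5* with *Krt14* in the basal layer of stratified epithelia, and *Krt4* with *Krt13* in the upper layers of internal stratified linings. *Krt7* (type II) and *Krt19* (type I) join the simple pair in ductal and glandular epithelia, and *Krt15* is a further type I keratin of basal cells. The uterine lumen and its glands are lined by a simple columnar epithelium, whereas the vagina and outer cervix are stratified. At implantation the luminal epithelium is the surface that meets the embryo.

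Only keratin symbols of the deposited table were looked up on mm10 (GENCODE release M21), so the counts here are of those entries. The type I keratin genes form 1 cluster on chromosome 11 (27 entries, 99232761 to 100269871), which holds *Krt13*, *Krt14*, *Krt15* and *Krt19*. The type II genes form the other, on chromosome 15 (24 entries with *Krt18*, 101347444 to 102032027, not counting *Krt85*, whose symbol had no match). It holds *Krt4*, *Krt5*, *Krt7* and *Krt8*, and in it *Krt18* is the type I gene. *Krt8* (101996698 to 102004482, minus strand) and *Krt18* (102028180 to 102032027, plus strand) lie 23697 bases apart and are transcribed away from each other, and *Krt7* (101411043 to 101430313, plus strand) lies near the opposite end of the same cluster. A processed pseudogene, Krt8-ps, is annotated on chromosome 7 (23357125 to 23358069), so some reads of *Krt8* could be shared with this copy.

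The bases just upstream of the transcription start are shown for the simple partners *Krt8* and *Krt18*, for *Krt7*, which was the simple keratin that differed between the genotypes, and for *Krt5*, a basal keratin whose libraries did not overlap. RefSeq promoter windows (GRCm38.p6, 250 bases before to 50 after the start) matched 6 of the 9 genes, *Krt4*, *Krt15* and *Krt19* having none. Only bases upstream of the start and of annotated untranslated regions are printed, and capitals mark a GC box (GGGCGG) or a CACCC box (CCACCC), searched on both strands. The windows are chr15:101412153-101412401 (plus strand) for *Krt7*, chr15:102004483-102004592 (minus strand) for *Krt8*, chr15:102027966-102028179 (plus strand) for *Krt18*, and chr15:101712906-101713155 (minus strand) for *Krt5*.
Krt7: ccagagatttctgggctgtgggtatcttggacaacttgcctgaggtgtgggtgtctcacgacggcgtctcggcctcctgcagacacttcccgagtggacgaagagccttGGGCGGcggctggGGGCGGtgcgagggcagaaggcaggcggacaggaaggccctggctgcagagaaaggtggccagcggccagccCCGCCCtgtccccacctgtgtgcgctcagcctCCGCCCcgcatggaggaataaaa
Krt8: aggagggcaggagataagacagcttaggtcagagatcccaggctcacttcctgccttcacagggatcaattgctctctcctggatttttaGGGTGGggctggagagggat
Krt18: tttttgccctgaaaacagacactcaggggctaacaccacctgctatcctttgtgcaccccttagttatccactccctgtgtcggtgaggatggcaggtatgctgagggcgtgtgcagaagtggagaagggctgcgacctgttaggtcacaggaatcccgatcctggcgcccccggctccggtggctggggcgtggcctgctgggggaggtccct
Krt5: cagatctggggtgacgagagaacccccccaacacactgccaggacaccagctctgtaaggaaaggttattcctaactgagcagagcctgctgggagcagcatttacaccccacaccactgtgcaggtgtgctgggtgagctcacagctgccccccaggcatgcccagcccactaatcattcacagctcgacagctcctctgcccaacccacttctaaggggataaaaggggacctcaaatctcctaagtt
The 249 bases of *Krt7* end at the start of its coding transcript, overlap an exon of a noncoding *Krt7* transcript, and hold 65.9% G and C with 4 GC boxes. GC boxes were found in 35.7% of all 32851 windows, and *Krt7* was the member with one. A CACCC box was found in 31.5% of all windows and in those of *Krt5*, *Krt8*, *Krt13*, *Krt14* and *Krt18*, although for *Krt5* and *Krt18* it lies outside the bases printed. The TATAAA form of the TATA box occurred in 13.6% of windows and, among the members, in that of *Krt8*, outside the bases printed. The palindromic estrogen response element was in none of the 7 windows of the members and in 0.07% of all windows. These motifs were chosen after the expression values were known, and a match or its absence is only a description of these letters.

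Values are FPKM as deposited, fragment numbers relative to exon length and library size, and the depth behind them is unknown. Genes entered the limma test of log2(FPKM + 1) when their mean was above 1 FPKM in either genotype, with Benjamini-Hochberg adjustment over all 14728 of them, and a gene was called when its adjusted p was under 0.05 and its mean FPKM differed at least 1.5 times. By this rule 10.3% of the genes tested were called, and 5.09% were called higher in Wnk1d/d uteri. *Wnk1* itself was 45.3 FPKM on average in Wnk1f/f and 31.2 FPKM in Wnk1d/d uteri (log2 fold change -0.52, limma adjusted p = 0.0017), where exons outside the deletion still count. All 4 simple keratins passed the filter on low values and none of the 5 stratified keratins did. Members were also compared singly by an exact two-sided permutation test over all 126 assignments of the genotypes to the libraries, for which 0.0079 is the smallest p possible; these 9 tests were not adjusted for their number. In whole tissue, fewer cells of a type and less RNA per cell cannot be told apart.

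The simple keratins were abundant in both genotypes, and *Krt7* was the only member called: its mean was 1.86 times higher in Wnk1d/d uteri, while *Krt8*, *Krt18* and *Krt19* did not pass the test. In Wnk1f/f libraries 1 to 4 *Krt7* was 107.89, 98.51, 69.06 and 140.90 FPKM, and in Wnk1d/d libraries 1 to 5 it was 249.26, 244.19, 208.06, 144.16 and 120.00 FPKM. Of the 5 Wnk1d/d libraries 4 lay above the highest Wnk1f/f library, and library 5 lay inside the Wnk1f/f range. The means were 104 ± 29.6 FPKM (SD, n = 4) and 193 ± 58.6 FPKM (SD, n = 5), with a log2 fold change of 0.87 (standard error 0.26, 95% interval 0.28 to 1.46, limma adjusted p = 0.0415), and p was 0.0317 in the exact permutation test. The call was close to its threshold: the adjusted p was above 0.05 without Wnk1f/f replicate 1, 2 or 3 and without Wnk1d/d replicate 1, 2 or 3, with log2 fold changes between 0.69 and 0.90 and a limma adjusted p between 0.0628 and 0.0927. It held without Wnk1f/f replicate 4 and without Wnk1d/d replicate 4 or 5, where the log2 fold change was 1.03, 0.96 and 1.03. In Wnk1f/f library 4 the summed FPKM of 7 liver genes was 170, against 8.32 to 28.2 in the other 8 libraries, and *Krt7* was also highest there among the Wnk1f/f libraries.

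**Figure D1:**
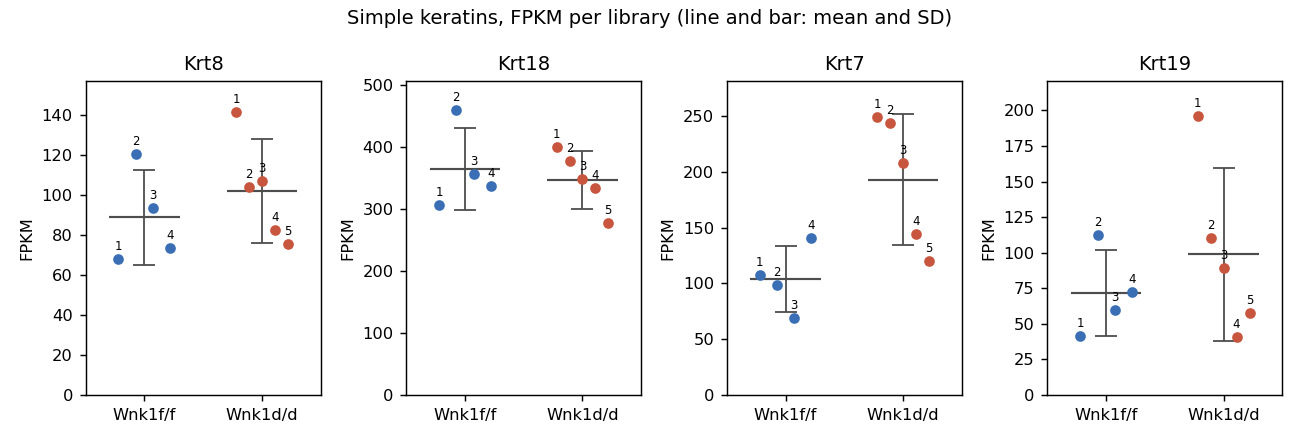
FPKM of the 4 simple keratins in each library (points, numbered by replicate), with a line at the mean and a bar of 1 SD, for 4 Wnk1f/f and 5 Wnk1d/d uteri. For *Krt7*, 4 of the 5 Wnk1d/d libraries sit above the highest Wnk1f/f library at 140.90 FPKM, and the ranges of *Krt8*, *Krt18* and *Krt19* overlap widely.

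*Krt18*, the type I partner in the simple pair, was the most abundant keratin. It was 306.75, 459.76, 355.71 and 336.35 FPKM in the Wnk1f/f libraries and 400.11, 377.39, 348.78, 333.30 and 277.33 FPKM in the Wnk1d/d libraries. All but 1 of the Wnk1d/d values fell inside the Wnk1f/f range, and that of library 5 fell below it. The log2 fold change was -0.06 (standard error 0.14, 95% interval -0.38 to 0.25, limma adjusted p = 0.765).

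*Krt8*, its type II partner, was 68.12, 120.52, 93.49 and 73.42 FPKM in the Wnk1f/f libraries and 141.59, 103.83, 107.14, 82.37 and 75.26 FPKM in the Wnk1d/d libraries. Wnk1d/d library 1 was the only one above the Wnk1f/f range. The log2 fold change was 0.20 (standard error 0.21, 95% interval -0.28 to 0.67, limma adjusted p = 0.515). *Krt19*, the small type I keratin of ducts and glands, had the highest ratio of highest to lowest library among the simple keratins in both genotypes, at 41.22, 112.55, 59.74 and 72.20 FPKM in the Wnk1f/f libraries and 196.42, 110.06, 88.92, 40.84 and 57.72 FPKM in the Wnk1d/d libraries. Its Wnk1d/d libraries spanned a 4.81-fold range that enclosed the Wnk1f/f range at both ends. The log2 fold change was 0.35 (standard error 0.44, 95% interval -0.63 to 1.33, limma adjusted p = 0.583), an interval that leaves room for changes as large as that of *Krt7* and for decreases.

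By mean FPKM, a scale per length, the order was *Krt18*, *Krt7*, *Krt8* and *Krt19* in both genotypes. *Krt18* lay above the other members in every library. In Wnk1f/f uteri the neighbours *Krt7* (104 ± 29.6, SD, n = 4), *Krt8* (88.9 ± 23.8, SD, n = 4) and *Krt19* (71.4 ± 30.2, SD, n = 4) overlapped. *Krt7* exceeded *Krt8* in 2 of 4 Wnk1f/f libraries and in 5 of 5 Wnk1d/d libraries. Among all genes ranked by mean FPKM, *Krt18* stood at position 180, *Krt7* at 496, *Krt8* at 936 and *Krt19* at 1058.

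The balance between the simple keratins within a library differed along with the level of *Krt7*. The FPKM ratio of *Krt7* to *Krt18* was 0.352, 0.214, 0.194 and 0.419 in the Wnk1f/f libraries and 0.623, 0.647, 0.597, 0.433 and 0.433 in the Wnk1d/d libraries. Every Wnk1d/d library was above every Wnk1f/f library, by a narrow margin for Wnk1d/d libraries 4 and 5 over Wnk1f/f library 4. *Krt7* made up 11.9% to 22.6% of the summed FPKM of the simple keratins in Wnk1f/f and 22.6% to 29.2% in Wnk1d/d uteri. The ratio of *Krt18* to *Krt8*, the partners of the simple pair, ran from 3.80 to 4.58 in Wnk1f/f and from 2.83 to 4.05 in Wnk1d/d uteri, with overlap. The summed FPKM of the 4 simple keratins also overlapped, at 524 to 791 and 530 to 987. These ratios were chosen after the values of the members were seen and carry no test.

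**Figure D2:**
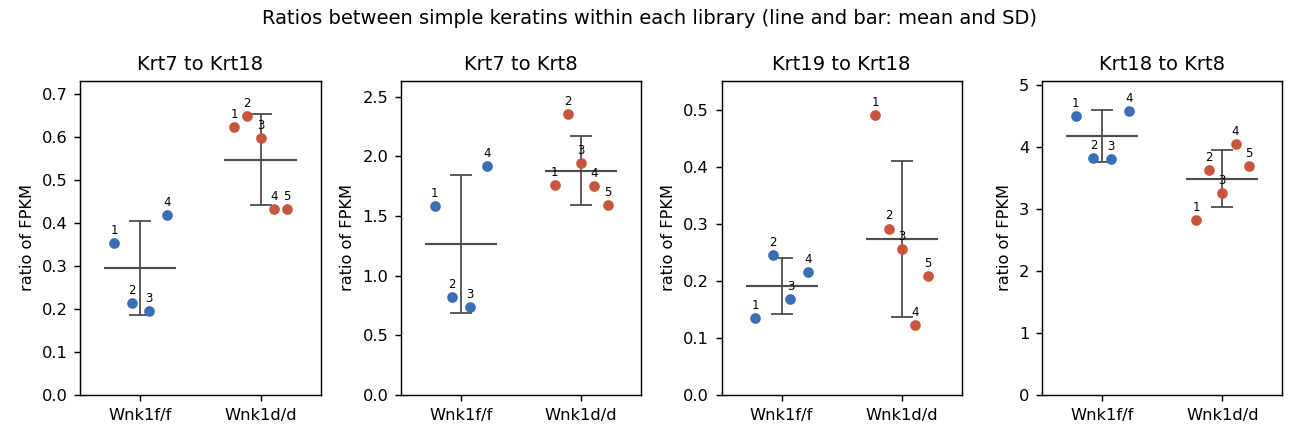
Ratio of FPKM between pairs of simple keratins within each library (points, numbered by replicate; line and bar, mean and 1 SD) for 4 Wnk1f/f and 5 Wnk1d/d uteri. The ratio of *Krt7* to *Krt18* is 0.194 to 0.419 in Wnk1f/f and 0.433 to 0.647 in Wnk1d/d libraries without overlap, and the other 3 ratios overlap.

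General epithelial markers were set beside these values. The summed FPKM of 15 epithelial genes, among them *Epcam* and *Cdh1*, was 1124 to 1669 in Wnk1f/f and 1381 to 1840 in Wnk1d/d uteri, and 1 of the 15, the tight junction gene *Cldn7*, was called (log2 fold change 0.61, limma adjusted p = 0.0404). As a share of that sum, *Krt7* was 4.92% to 12.5% in Wnk1f/f and 8.69% to 13.7% in Wnk1d/d uteri, with overlap. *Cldn3* and *Spint2* carry much of the sum, with means of 362 and 339 of 1414 FPKM in Wnk1f/f uteri, and *Cldn3* alone ran from 230 to 480 FPKM there. Marker transcripts of other cell types differed with genotype as well, where 10.3% of all genes tested were called in either direction and 5.09% higher. Of 7 stroma markers 2 were called higher and 2 lower. All 7 smooth muscle markers were called higher (sums of 2968 to 6681 and 7491 to 14104 FPKM). All 6 endothelial markers were called lower (331 to 367 and 131 to 266 FPKM), and 3 of 5 gland markers were called lower. Those 3, the secretory genes *Spink3*, *Prss28* and *Prss29*, carry nearly all of the gland sum (6587 to 10393 and 815 to 2716 FPKM), while *Foxa2*, the transcription factor of gland cells, and *Cxcl15* had log2 fold changes of 0.20 and 0.61 (limma adjusted p = 0.364 and 0.123). Their part in the keratin values was not tested.

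The stratified keratins were near the lower limit of the measurement, with every value under 1.5 FPKM, and the mean of all 5 was higher in Wnk1d/d uteri. For *Krt4*, *Krt5* and *Krt14* every Wnk1d/d library was above every Wnk1f/f library. Among the 7221 features above 0 that did not pass the filter, 1.98% were higher in every Wnk1d/d library, and over all genes tested 19.9% did not overlap in either direction, against 0 of 4 simple keratins. Those 7221 include features at 0 in some Wnk1d/d libraries, which cannot be higher in all of them. *Krt4*, *Krt5* and *Krt14* were above 0 in every library, so the share of 1.98% is not matched to their level. The table is written to 2 decimals, so the lowest values move in steps of 0.01 FPKM.

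*Krt5*, the type II keratin of basal cells, was 0.15, 0.10, 0.07 and 0.08 FPKM in the Wnk1f/f libraries and 0.28, 0.50, 0.39, 0.39 and 0.31 FPKM in the Wnk1d/d libraries. The lowest Wnk1d/d library was above the highest Wnk1f/f library, and the ratio of means was 3.74. The exact permutation test of log2(FPKM + 1) gave p = 0.0079, with a difference of 0.32, and all 9 tests that each left out 1 library stayed under 0.05. Without a Wnk1d/d library the groups are equal in size, and for libraries that do not overlap p is then fixed at 0.0286. Those tests add nothing to the lack of overlap. Without a Wnk1f/f library the exact permutation test gave p = 0.0179.

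*Krt14*, its type I partner, was 0.07, 0.35, 0.12 and 0.08 FPKM in the Wnk1f/f libraries and 1.46, 0.44, 0.72, 0.54 and 1.32 FPKM in the Wnk1d/d libraries. Wnk1d/d libraries 1 and 5 were highest, and Wnk1f/f library 2 came close to the lowest Wnk1d/d library. The ratio of means was 5.78, the difference on the log2(FPKM + 1) scale was 0.69, and the exact permutation test gave p = 0.0159 (under 0.05 without any single library as well). When limma was run with no filter on low values, over 21949 features of which 3.56% were called higher, *Krt5* (limma adjusted p = 0.0071) and *Krt14* (limma adjusted p = 0.032) were called higher, and *Krt7* was not (limma adjusted p = 0.0628).

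*Krt4*, a keratin of the upper layers of stratified linings, was 0.05, 0.05, 0.03 and 0.02 FPKM in the Wnk1f/f libraries and 0.06, 0.11, 0.26, 0.12 and 0.12 FPKM in the Wnk1d/d libraries. The gap between the genotypes was 1 step of the table. The exact permutation test gave p = 0.0159, and it gave p = 0.0714 without any 1 of the Wnk1f/f libraries. *Krt13*, the partner of *Krt4*, was 0.09, 0.00, 0.02 and 0.00 FPKM in the Wnk1f/f libraries and 0.62, 0.23, 0.14, 0.02 and 0.10 FPKM in the Wnk1d/d libraries, with overlap through Wnk1d/d library 4. The exact permutation test gave p = 0.0794, and without Wnk1d/d replicate 4 it gave p = 0.0286. *Krt15* was 0.02, 0.23, 0.04 and 0.02 FPKM in the Wnk1f/f libraries and 0.23, 0.17, 0.21, 0.05 and 0.06 FPKM in the Wnk1d/d libraries. Wnk1f/f library 2 was as high as the highest Wnk1d/d library, the exact permutation test gave p = 0.31, and without that library it gave p = 0.0357.

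**Figure D3:**
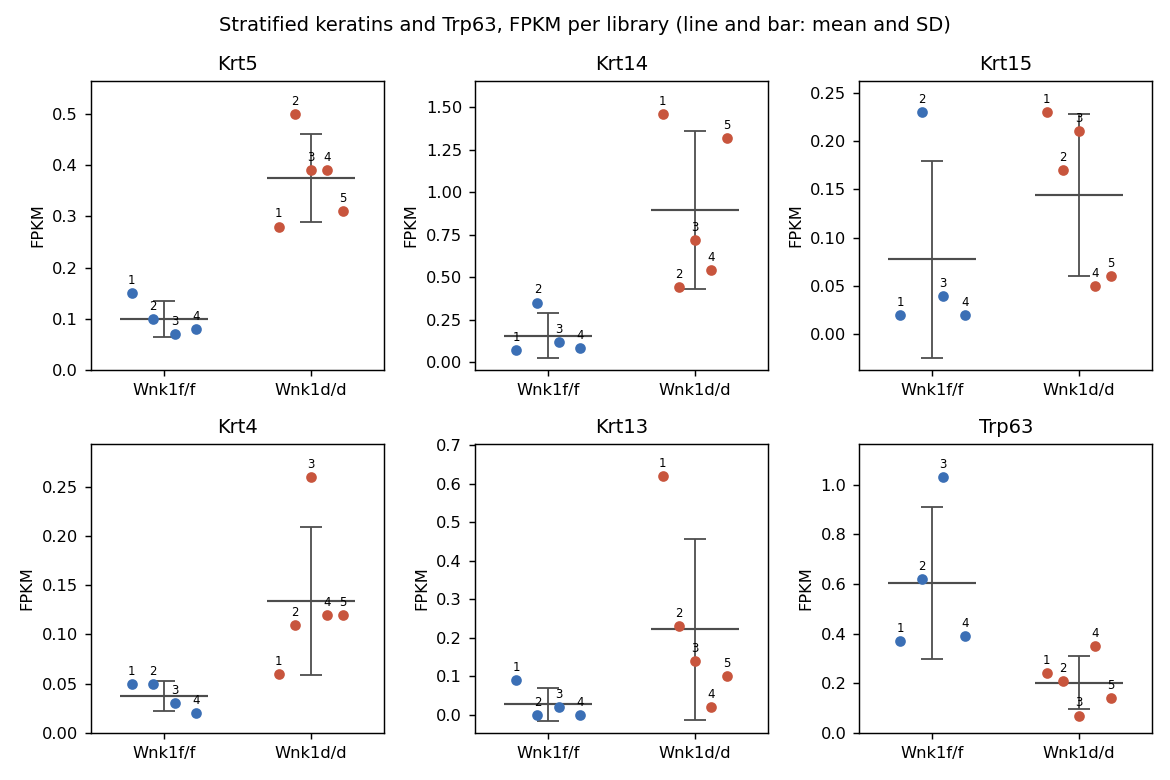
FPKM of the 5 stratified keratins and of *Trp63* in each library (points, numbered by replicate; line and bar, mean and 1 SD, whose lower end can fall below 0) for 4 Wnk1f/f and 5 Wnk1d/d uteri. *Krt4*, *Krt5* and *Krt14* are higher, and *Trp63* lower, in every Wnk1d/d library than in any Wnk1f/f library.

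Together the stratified keratins summed to 0.38, 0.73, 0.28 and 0.20 FPKM in the Wnk1f/f libraries and 2.65, 1.45, 1.72, 1.12 and 1.91 FPKM in the Wnk1d/d libraries. Of all keratin FPKM, the simple class made up 79.57% to 82.95% in Wnk1f/f and 76.0% to 84.2% in Wnk1d/d uteri. The stratified keratins made up 0.0255% to 0.0765% in Wnk1f/f and 0.135% to 0.291% in Wnk1d/d uteri. *Trp63*, which encodes the p63 transcription factor of basal cells and an activator of *Krt5* and *Krt14*, went the other way, at 0.37, 0.62, 1.03 and 0.39 FPKM in the Wnk1f/f libraries and 0.24, 0.21, 0.07, 0.35 and 0.14 FPKM in the Wnk1d/d libraries. Every Wnk1d/d library was below every Wnk1f/f library, by 0.02 FPKM at the closest (exact permutation test, p = 0.0079, and limma adjusted p with no filter = 0.0557). *Trp63* was singled out after its values were seen, and its permutation p is unadjusted and lies outside the tests of the members.

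Markers of other cells that can carry stratified keratins were read beside these values, where 5.09% of all genes tested were called higher. Of 17 genes of squamous epithelium, 6 passed the filter and 3 were called higher: *Sprr1a*, a cornified envelope precursor (log2 fold change 1.72, limma adjusted p = 0.0026), *Dmkn* (0.78, limma adjusted p = 0.0291) and *Calml3* (0.99, limma adjusted p = 0.0190). *Sprr1a* and *Dmkn* passed the filter only through Wnk1d/d uteri, where they are high, so a call of them was favoured by the filter, and of the 3 genes above 1 FPKM in both genotypes 1 was called. Other genes of the list differed widely in level: *Ivl* was at 0.09 FPKM or less, *Krt1* at 0.21 FPKM or less, *Dsc3* at 0.03 FPKM or less and *Sprr1b* at 0 in all 9 libraries, whereas *Krt10* was 4.8 to 33.70 FPKM, *Sbsn* 7.25 to 11.37 FPKM and *Lor* 0.75 to 1.49 FPKM, none of them called. The squamous sum was 19.2 to 27.6 FPKM in Wnk1f/f and 26.6 to 57.0 FPKM in Wnk1d/d uteri. The sum of 7 genes of mesothelium, the outer lining of the organ, was 62.9 to 97.8 and 74.7 to 136 FPKM, and 1 of them, *Lrrn4*, was called higher (log2 fold change 1.12, limma adjusted p = 0.0356). *Msln*, the mesothelin gene of that list, was 7.38, 2.82, 5.71 and 4.68 FPKM in the Wnk1f/f libraries and 28.40, 7.78, 10.56, 7.49 and 15.30 FPKM in the Wnk1d/d libraries (limma adjusted p = 0.0503), with Wnk1d/d libraries 1 and 5 highest, as for *Krt14*. *Wt1*, the most abundant gene of the list and also a gene of uterine stroma, was lower in every Wnk1d/d library (53.29 to 67.80 and 40.28 to 50.26 FPKM, log2 fold change -0.41, limma adjusted p = 0.0198), by less than 1.5 times. *Wt1* carries most of the mesothelium sum, with a mean of 61.7 of 81.7 FPKM in Wnk1f/f uteri. Every other gene of that list had a higher mean in Wnk1d/d uteri, and the list's median log2 fold change was 0.83. The part of either cell type in the stratified keratin values was not tested.

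Seen as classes, 1 of 4 simple keratins was called higher, where 5.09% of all genes tested were. The median log2 fold change of the simple keratins was 0.27, beside 0.22 for the 15 epithelial markers and 0.0030 over all genes tested. None of the 5 stratified keratins could be called in the filtered test, and their median difference on the log2(FPKM + 1) scale was 0.23, a scale that understates changes at such low FPKM. The 43 other keratin entries of the table were also read: 10 were at 0 in all libraries and 10 passed the filter, of which 4 were called higher and none lower, with a median log2 fold change of 0.71. *Krt85* passed the filter only through Wnk1d/d uteri, where it is high, and among the 9 others 3 were called higher with a median of 0.66. *Krt20*, a type I keratin of intestinal and urothelial surface cells, was 0.43, 2.17, 0.92 and 2.01 FPKM in the Wnk1f/f libraries and 8.64, 11.87, 8.76, 5.76 and 2.13 FPKM in the Wnk1d/d libraries (log2 fold change of 1.75 ± 0.40, SE, limma adjusted p = 0.0168). Wnk1d/d library 5 was the one inside the Wnk1f/f range. *Krt17*, a type I keratin of stressed and basal epithelium, was 1.97, 4.75, 2.18 and 4.45 FPKM and 6.62, 7.94, 8.29, 10.06 and 4.70 FPKM in the same order (log2 fold change of 1.0 ± 0.25, SE, limma adjusted p = 0.0223), again with Wnk1d/d library 5 inside the Wnk1f/f range.

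*Krt85* and *Krt83*, type II hair keratins, were the other keratins called. *Krt85* was 0.29, 0.70, 0.27 and 0.72 FPKM in the Wnk1f/f libraries and 2.67, 1.82, 3.86, 2.98 and 2.45 FPKM in the Wnk1d/d libraries, without overlap (log2 fold change of 1.32 ± 0.17, SE, limma adjusted p = 0.0027). *Krt83* rose from 2.25 ± 0.519 FPKM (SD, n = 4) to 4.75 ± 1.34 FPKM (SD, n = 5), with a log2 fold change of 0.81 (limma adjusted p = 0.0168). *Krt83* shares near-identical sequence with its neighbours *Krt81* and *Krt86*, which were not called, so the split of reads among these 3 is uncertain. The remaining 4 that passed the filter without a call were *Krt10*, *Krt12*, *Krt23* and *Krt80*. *Krt23* was the most abundant of them, with means of 96.0 FPKM in Wnk1f/f and 101.5 FPKM in Wnk1d/d uteri.

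**Figure D4:**
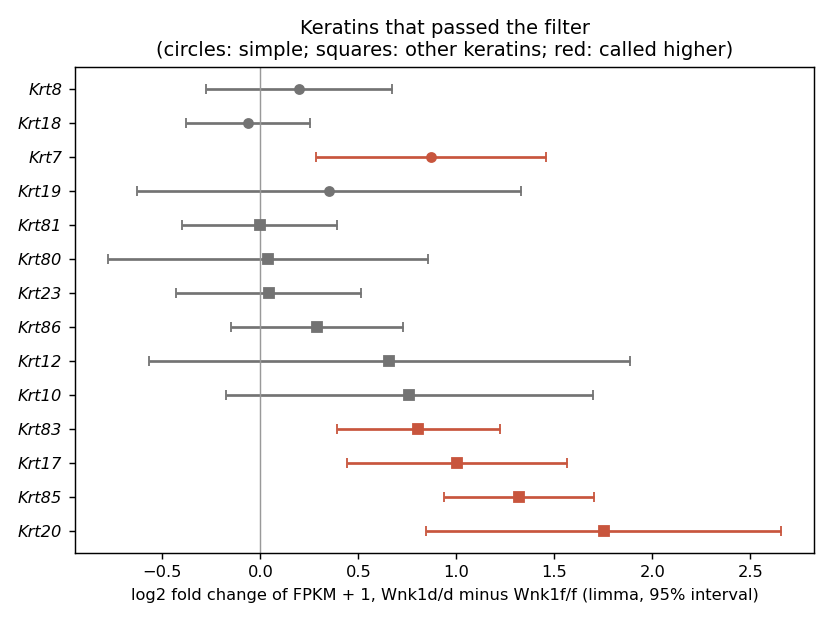
log2 fold change of FPKM + 1 (Wnk1d/d minus Wnk1f/f, limma) with its 95% interval for the 14 keratins that passed the filter, circles for the 4 simple keratins and squares for the others, red where called higher. *Krt7* at 0.87 and *Krt83*, *Krt17*, *Krt85* and *Krt20* at 0.81 to 1.75 are red, and *Krt8*, *Krt18* and *Krt19* have intervals that include 0.

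Keratin filaments end on desmosomes, the junctions between cells, and on hemidesmosomes, which fix basal cells to the basement membrane. Of 23 desmosome and cytolinker genes, 16 passed the filter and 2 were called higher: *Pkp2*, a desmosomal plaque plakophilin (5.16 to 7.0 FPKM in Wnk1f/f and 8.70 to 12.26 FPKM in Wnk1d/d uteri, log2 fold change 0.80, limma adjusted p = 0.0038), and *Dsc2*, a desmosomal cadherin (3.61 to 5.80 and 6.32 to 13.97 FPKM, log2 fold change 0.88, limma adjusted p = 0.0155). Neither gene overlapped between the genotypes, where 19.9% of all genes tested did not overlap in either direction. *Pkp4*, higher, and *Tchp*, lower in every Wnk1d/d library, did not overlap either and were not called. *Dsp*, the desmoplakin that binds keratin to the plaque, had a log2 fold change of 0.09 (limma adjusted p = 0.824). The list's median log2 fold change was 0.09, and over all genes tested 10.3% were called in either direction and 5.09% higher.

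Of 7 hemidesmosome genes 6 passed the filter, 1 was called higher and 1 lower, where 10.3% of all genes tested were called in either direction. The one lower was *Lama3*, which encodes a laminin chain of the basement membrane. *Lama3* was 46.00, 20.02, 13.81 and 34.17 FPKM in the Wnk1f/f libraries and 6.63, 16.41, 4.99, 4.24 and 4.26 FPKM in the Wnk1d/d libraries, where library 2 reached into the Wnk1f/f range (log2 fold change -1.86, limma adjusted p = 0.0162).

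Among 14 genes of other intermediate filaments 10 passed the filter, 4 were called higher and 1 lower, where 10.3% of all genes tested were called in either direction. Those higher were *Sync*, *Des* and *Synm*, filament proteins of muscle, with log2 fold changes of 1.66, 1.22 and 0.87 (limma adjusted p = 0.0043, 0.0102 and 0.0398), and the nuclear lamin gene *Lmna* (0.92, limma adjusted p = 0.0049). The one lower was the neurofilament gene *Nefh* (-0.58, limma adjusted p = 0.0473), which passed the filter only through Wnk1f/f uteri. *Des* was 255 to 479 FPKM in Wnk1f/f and 565 to 1183 FPKM in Wnk1d/d uteri, and it is also in the smooth muscle list whose genes were all higher. *Vim*, the filament of stromal cells, was lower in every Wnk1d/d library (842 to 958 and 497 to 778 FPKM, limma adjusted p = 0.0151) but by less than 1.5 times. The number called in this list fell from 5 to 3 without Wnk1f/f replicate 2 and without Wnk1d/d replicate 1, 3, 4 or 5.

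Of 14 transcription factors of epithelial differentiation 11 passed the filter and 3 were called, all higher: *Elf3* (16.24 to 37.85 FPKM in Wnk1f/f and 36.22 to 76.56 FPKM in Wnk1d/d uteri, log2 fold change 1.02, limma adjusted p = 0.0321), *Ehf* (20.68 to 29.29 and 34.11 to 61.39 FPKM, 0.80, limma adjusted p = 0.0204) and the grainyhead factor *Grhl2* (7.57 to 13.99 and 14.81 to 22.03 FPKM, 0.68, limma adjusted p = 0.0417). *Ehf* and *Grhl2* did not overlap between the genotypes, where 19.9% of all genes tested did not in either direction, and *Elf3* overlapped in 1 Wnk1d/d library. Over all genes tested 5.09% were called higher. The number of these factors called fell to 0 without Wnk1f/f replicate 1 or without Wnk1f/f replicate 4. It fell to 1 without Wnk1d/d replicate 1 or without Wnk1d/d replicate 3, and rose to 5 without Wnk1d/d replicate 2.

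The genes whose pattern over the 9 libraries lay closest to a member were found by the root mean square difference of centred log2(FPKM + 1). Only genes that passed the filter were ranked, and all keratins were left out. For *Krt7*, whose own spread on this measure was 0.587, these were *Sgsm1* (0.186), the serotonin transporter gene *Slc6a4* (0.190) and *Lad1*, which encodes the anchoring-filament protein ladinin (0.194). *Sgsm1* was called higher (limma adjusted p = 0.0066) and *Slc6a4* and *Lad1* were not (limma adjusted p = 0.0810 and 0.0623). For *Krt14*, the stratified keratin with the highest mean and an own spread of 0.423, the closest were the connexin gene *Gjb5* (0.151), *Nfkbia*, the inhibitor of NF-κB (0.166), and *Ankrd46* (0.171). *Gjb5* was 0.63, 1.11, 0.68 and 0.45 FPKM in the Wnk1f/f libraries and 3.05, 0.69, 1.77, 1.15 and 2.04 FPKM in the Wnk1d/d libraries, with libraries 1 and 5 highest, as for *Krt14* (limma adjusted p = 0.0865). With means of 0.72 FPKM in Wnk1f/f and 1.74 FPKM in Wnk1d/d uteri, *Gjb5* passed the filter, and so was ranked, only through Wnk1d/d uteri, where it is high. *Nfkbia* and *Ankrd46* were called higher (limma adjusted p = 0.0028 and 0.0033). Genes picked for likeness to a member that differs between the genotypes tend to differ as well, so calls among these neighbours are no separate result. The likeness also holds only on the log2(FPKM + 1) scale, which shrinks low values: the ratio of means was 5.78 for *Krt14*, 1.71 for *Nfkbia* and 1.64 for *Ankrd46*.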

How the data were processed

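Whole-uterus RNA was sequenced with 75 nt paired ends (reads with a mean quality above 20 kept). The authors aligned it to mm10 with TopHat (TopHat2 2.0.4 and Cufflinks 2.0.2 in the submitters' processing notes) and deposited 1 table of FPKM for 9 libraries, unpooled. The gene annotation is not given in the sources used here. No columns of fold changes were used. Gapdh is listed at 4.53 to 9.53 FPKM, so genes with many copies may be undercounted.

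FPKM were taken as deposited and log2(FPKM + 1) was fitted, unpaired and with trend, by lmFit and eBayes of limma 3.58.1 (R 4.3.3) for genes whose mean was above 1 FPKM in either genotype; the paper's Cuffdiff needs reads and was not rerun. Exact permutation tests, sequence searches and figures used Python 3.11.15, NumPy 2.4.6 and pandas 2.3.3. The limma step was tested on simulated data.

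FPKM hold no counts, so depth is unknown and no counting intervals are given. Steps in low values were too few to read the libraries' relative depth without fixing the answer by the choice of entries, so none is given. Across genes, not independent of each other, log2(FPKM + 1) correlated at 0.942 to 0.969 between libraries of 1 genotype and at 0.906 to 0.956 between genotypes.

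The members, gene lists and tests were chosen with earlier results of these data known. Named genes are all 9 members, the called keratins, of each list the called genes (at most 6) and those with a defining role. The 3 tested genes other than keratins nearest to *Krt7* and to *Krt14* are named as well. *Msln*, *Wt1*, *Trp63* and the keratins of the closing section were singled out after their values were seen. Alternatives were pseudocounts of 0.1 and 0.01, quantile normalization, median scaling, no filter or one at 5 FPKM, library weights, robust estimation, a fit without trend, a replicate block, other call rules, and leaving out each library. The result for a gene of the lists is not reported here, although counts over its list include it.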

Additional observations from a re-analysis of the deposited data

Results flagged for a closer look

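Each keratin that passed the filter, each member and a few of their sums and ratios were looked at within each genotype for a library farther from the others than Dixon's 95% value allows, 52 groups in all. This happened in 4, and chance alone flags about 1 group in 20. *Krt15* was 0.23 FPKM in Wnk1f/f library 2, with the next Wnk1f/f library at 0.04 FPKM. *Krt10*, a keratin of differentiated squamous cells, was 33.7 FPKM in Wnk1d/d library 1, with the next at 14.6 FPKM. *Krt80* was 14.6 FPKM in Wnk1d/d library 2, with the next at 6.30 FPKM. *Krt81* was 0.96 FPKM in Wnk1f/f library 3, below the next at 1.29 FPKM.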

How the results depend on the processing

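*Krt7* was higher in Wnk1d/d uteri under all 19 alternatives and had a limma adjusted p under 0.05 in 9. It lost the call with no filter (log2 fold change 0.87), quantile normalization (0.74), library weights (0.69) and the replicate block (1.03, limma adjusted p = 0.0893). Leaving out 1 library gave 0.69 to 1.03 for *Krt7*. *Krt18* turned to 0.014 under the replicate block and without Wnk1d/d replicate 5 (0.014), and to 0.053 without Wnk1f/f replicate 2 (-0.14 to 0.053 without 1 library), and it was -0.23 with quantile normalization and -0.16 with library weights. Without 1 library *Krt8* was 0.072 to 0.35 and *Krt19* 0.051 to 0.61, and neither passed under any alternative. *Krt5* (0.29 to 0.34 without 1 library) and *Krt14* (0.59 to 0.78) stayed under an exact permutation p of 0.05 under every alternative run for them. Where a Wnk1d/d library was left out, that outcome was fixed by the lack of overlap. Pseudocounts of 0.1 and 0.01 raised the differences to 1.24 and 1.83 for *Krt5*, 1.96 and 2.58 for *Krt14* and 0.72 and 1.52 for *Krt4*. For *Krt4* (0.087 to 0.15 without 1 library, exact permutation p = 0.0286 to 0.0714), *Krt13* (0.13 to 0.29) and *Krt15* (0.061 to 0.15) the call depended on the library left out, and *Krt13* reached p = 0.0476 by the exact permutation test with pseudocounts of 0.1 (1.12) and 0.01 (2.68).

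The number of members called was 2 with no filter (0 simple and 2 stratified) and 0 with quantile normalization, library weights, the block or a ratio of at least 2, where simple keratins were 0 as well. It was 0 to 1 when 1 library was left out, as were the simple and the stratified counts, the latter through *Krt14*, which without Wnk1d/d replicate 2 enters the test only by its Wnk1d/d mean. Other keratins called were 2 with a filter at 5 FPKM, 2 with the block, and 3 to 5 without 1 library. Desmosome genes were 1 at a ratio of 2 and 2 to 3 without 1 library. Hemidesmosome genes were 1 with the block, 5 by adjusted p alone and 2 to 3 without 1 library. Other intermediate filament genes were 1 with the block, 3 at a ratio of 2 and 3 to 6 without 1 library. Epithelial transcription factors were 1 with no filter, 0 with the block, 1 at a ratio of 2 and 0 to 5 without 1 library. Over all genes, 1513 were called, 218 with the block, 3249 by adjusted p alone, 550 at a ratio of 2, and 1019 to 1870 without 1 library. The cause of these shifts was not tested.

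Replicate and library numbers are those of the sample titles, where the genotypes share numbers that belong to different mice. The column headers of the deposited data number the libraries differently, with no number shared between the genotypes. Same-numbered libraries did not deviate together (correlation -0.0867, -0.0029, 0.0221 and -0.268 across genes), so the block is given only as an alternative, and Wnk1d/d replicate 5 has no partner in it. Quantile normalization of the stratified keratins ran over the whole table and that of the limma fits over the tested genes. Depth is unknown, and p-values measure the spread between single mice.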

Other observations

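Variation within a genotype was large for *Krt19* and for *Krt10* and *Krt12*, keratins of skin and of cornea. *Krt12* was 5.26, 27.57, 13.06 and 14.37 FPKM in the Wnk1f/f libraries and 51.02, 34.75, 19.53, 14.12 and 8.18 FPKM in the Wnk1d/d libraries, and *Krt10* was 4.8, 14.56, 9.06 and 5.34 FPKM and 33.70, 14.55, 13.03, 9.85 and 7.48 FPKM in the same order. For all 3 genes, library 2 was the highest and library 1 the lowest of the Wnk1f/f libraries, and Wnk1d/d libraries 1, 2 and 3 were, in that order, the highest of their genotype. *Krt10* (limma adjusted p = 0.208) and *Krt12* (limma adjusted p = 0.400) did not pass the test between genotypes. These genes were picked for this likeness after their values were seen, and it was not tested.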
